A study of Mus musculus with 24 samples.

Results

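The water channels Aqp4 and Aqp1, the syntrophin Sntb1, dystrophin (Dmd), utrophin (Utrn), dystroglycan (Dag1), alpha-sarcoglycan (Sgca) and neuronal nitric oxide synthase (Nos1) are 8 genes of the muscle membrane. They were taken by name, 8 genes of the 54532 in the count files, and all 8 passed the filter on low counts in both sexes. RNA of the left gastrocnemius, a calf muscle, was sequenced from wild-type C57/BL6 mice in 6 groups of 4 samples. Controls were sedentary and received saline of pH 7.2 in that muscle on 2 occasions separated by 5 days, 20 µl at a time. In sedentary pain the injections were of pH 5.0, and 6 min of electrically evoked contraction came just before the second. Active pain animals had running wheels for 8 weeks and then the same pain procedure, and every sample is labelled 24 h. Females and males each had the 3 groups. Active and sedentary pain differ in running alone. Controls had neither acid nor contraction, so these cannot be told apart, and no group ran without the pain procedure. The labels speak of animals but do not say that each library came from a separate one, so p-values measure the spread between these samples.

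The members were selected on results already known, at least in part: Aqp4 had been named for its difference between female active and female sedentary pain, so that comparison is given for all 8 genes as values without a test. For Aqp4 no female comparison carries a test.

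Dystrophin is a rod-shaped protein that ties the actin cytoskeleton of a muscle fibre to a complex in the membrane. Dystroglycan, anchored by the sarcoglycans, carries that link to laminin outside the fibre, and syntrophins bound to dystrophin hold nitric oxide synthase and aquaporin-4 at the membrane. Aquaporin-4 is the water channel of fast-twitch fibres, whereas aquaporin-1 is mainly a channel of capillary endothelium. Utrophin is the homologue of dystrophin that is enriched at the neuromuscular junction in adult muscle.

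Libraries held 17612139 to 34039699 counts. Fast-fibre markers were abundant in all of them, with Myh4, the fastest myosin heavy chain, at 19478 to 67467 CPM, the read count scaled to library size. In 4 libraries genes with at least 10 kb of exon were low against genes under 2 kb. The difference of their median log2 deviations from same-sex controls was -1.12 and -0.89 in female sedentary pain replicates 2 and 4, -1.43 in male sedentary pain replicate 1 and -1.10 in male active pain replicate 2, and it was -0.68 or higher in the other libraries. Mitochondrially encoded genes took 3.85% and 2.75% of counts in those female libraries, 4.53% and 5.965% in the male ones, 8.59% to 11.2% in the 8 controls and 5.865% to 12.6% in the rest. Macrophage and monocyte markers, 12 genes, summed to 114 to 247 CPM in female controls, 536 to 6032 CPM in female sedentary pain and 284 to 582 CPM in female active pain, with the highest sums in sedentary replicates 3 and 4. In males the sums were 77.5 to 166 CPM in controls, 167 to 920 CPM in sedentary pain and 267 to 599 CPM in active pain. Fast-fibre markers, 12 genes, summed to 196068 to 290876 CPM in female controls and 130949 to 260690 CPM in female sedentary pain. The lowest sums were in sedentary replicates 3 and 4. In female sedentary pain against control 2 of the 12 passed the test as lower and 10 did not pass, beside 13.9% of all genes lower. Myh2, a fast myosin heavy chain, fell by 1.74 ± 0.60 and Actn3, the fast-fibre alpha-actinin, by 0.67 ± 0.21 on the log2 scale (edgeR, adjusted p = 0.0438 and 0.0298). Slow-fibre markers, 8 genes, were all below control there, with a median log2 fold change of -1.54, but none passed the test. The part of these fibre, macrophage and mitochondrial values in the members' values was not tested. The defining fibre and macrophage markers were detected in every library. These are bulk samples, so fewer cells of a type and less RNA per cell cannot be told apart.

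The genes differ widely in length, which matters beside those 4 libraries. On GRCm38, the union of annotated exons spans 23.8 kb for Dmd (ENSMUSG00000045103, chrX:82948870-85206141, plus strand), 17.1 kb for Utrn (ENSMUSG00000019820, chr10:12382188-12869365, minus) and 11.2 kb for Nos1 (ENSMUSG00000029361, chr5:117781032-117958840, plus). It spans 6.36 kb for Dag1 (ENSMUSG00000039952, chr9:108204634-108263958, minus), 6.23 kb for Aqp4 (ENSMUSG00000024411, chr18:15389496-15410982, minus) and 5.32 kb for Sntb1 (ENSMUSG00000060429, chr15:55636388-55906949, minus). Aqp1 (ENSMUSG00000004655, chr6:55336432-55348555, plus) has 2.63 kb and Sgca (ENSMUSG00000001508, chr11:94962791-94976327, minus) 1.74 kb. All 8 are protein-coding genes, and the lengths include untranslated exons.

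Per kilobase of exon, the order of the genes was led by the sarcoglycan in every group. In female controls Sgca stood at 105 ± 14.8 CPM per kb (SD, n = 4), Aqp1 at 73.3 ± 6.26, Dag1 at 43.4 ± 8.90 and Nos1 at 8.54 ± 2.37. Below them Sntb1 at 3.89 ± 0.70, Aqp4 at 3.83 ± 1.14 and Dmd at 3.60 ± 1.31 CPM per kb lay within each other's spread, and Utrn was lowest at 1.39 ± 0.28. Male controls had the order Sgca, Aqp1, Dag1, Nos1, Dmd, Aqp4, Sntb1 and Utrn, from 117 ± 1.86 for Sgca to 1.54 ± 0.20 CPM per kb for Utrn. In female sedentary pain Aqp4 stood last, at 0.58 ± 0.40 CPM per kb, beside Utrn at 0.72 ± 0.31, and these neighbours did not differ beyond their spread. In the other pain groups Aqp4 was at rank 5 or 6 and Utrn last.

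Dmd and Sgca encode partners of one complex, and Aqp1 is the second water channel. The bases before the start of these 3 genes are shown as a description, and their part in the values was not tested. They are the 250 bases upstream of the RefSeq start on GRCm38.p6, at chrX:82948620-82948869 (plus strand) for Dmd, chr11:94976328-94976577 (minus) for Sgca and chr6:55336049-55336298 (plus) for Aqp1, written 5′ to 3′. Capitals mark the E-box CANNTG, the letters that myogenic basic helix-loop-helix factors can bind and that read the same way on both strands.
Dmd: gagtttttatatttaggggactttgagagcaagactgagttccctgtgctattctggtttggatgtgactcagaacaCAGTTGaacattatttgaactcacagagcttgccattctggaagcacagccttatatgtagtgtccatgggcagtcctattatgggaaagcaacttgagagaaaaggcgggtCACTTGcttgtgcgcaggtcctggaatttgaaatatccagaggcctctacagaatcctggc
Sgca: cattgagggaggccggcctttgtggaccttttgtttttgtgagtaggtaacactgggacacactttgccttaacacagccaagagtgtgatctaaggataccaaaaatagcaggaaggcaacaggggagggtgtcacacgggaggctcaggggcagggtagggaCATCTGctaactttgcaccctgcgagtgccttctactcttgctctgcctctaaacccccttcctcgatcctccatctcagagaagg
Aqp1: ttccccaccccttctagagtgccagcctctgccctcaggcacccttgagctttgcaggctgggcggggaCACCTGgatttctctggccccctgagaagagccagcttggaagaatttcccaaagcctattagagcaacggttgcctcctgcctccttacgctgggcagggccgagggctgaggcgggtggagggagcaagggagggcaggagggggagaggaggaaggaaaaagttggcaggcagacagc
The window held 2 E-boxes for Dmd and 1 each for Sgca and Aqp1. Of 32851 such windows in the RefSeq table, 66.2% held at least 1, so the match is a common one. The windows differed in base composition, with 45.2% G and C for Dmd, 52.8% for Sgca and 62.0% for Aqp1. RefSeq entries were found for 6 of the 8 genes.

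**Figure D1:**
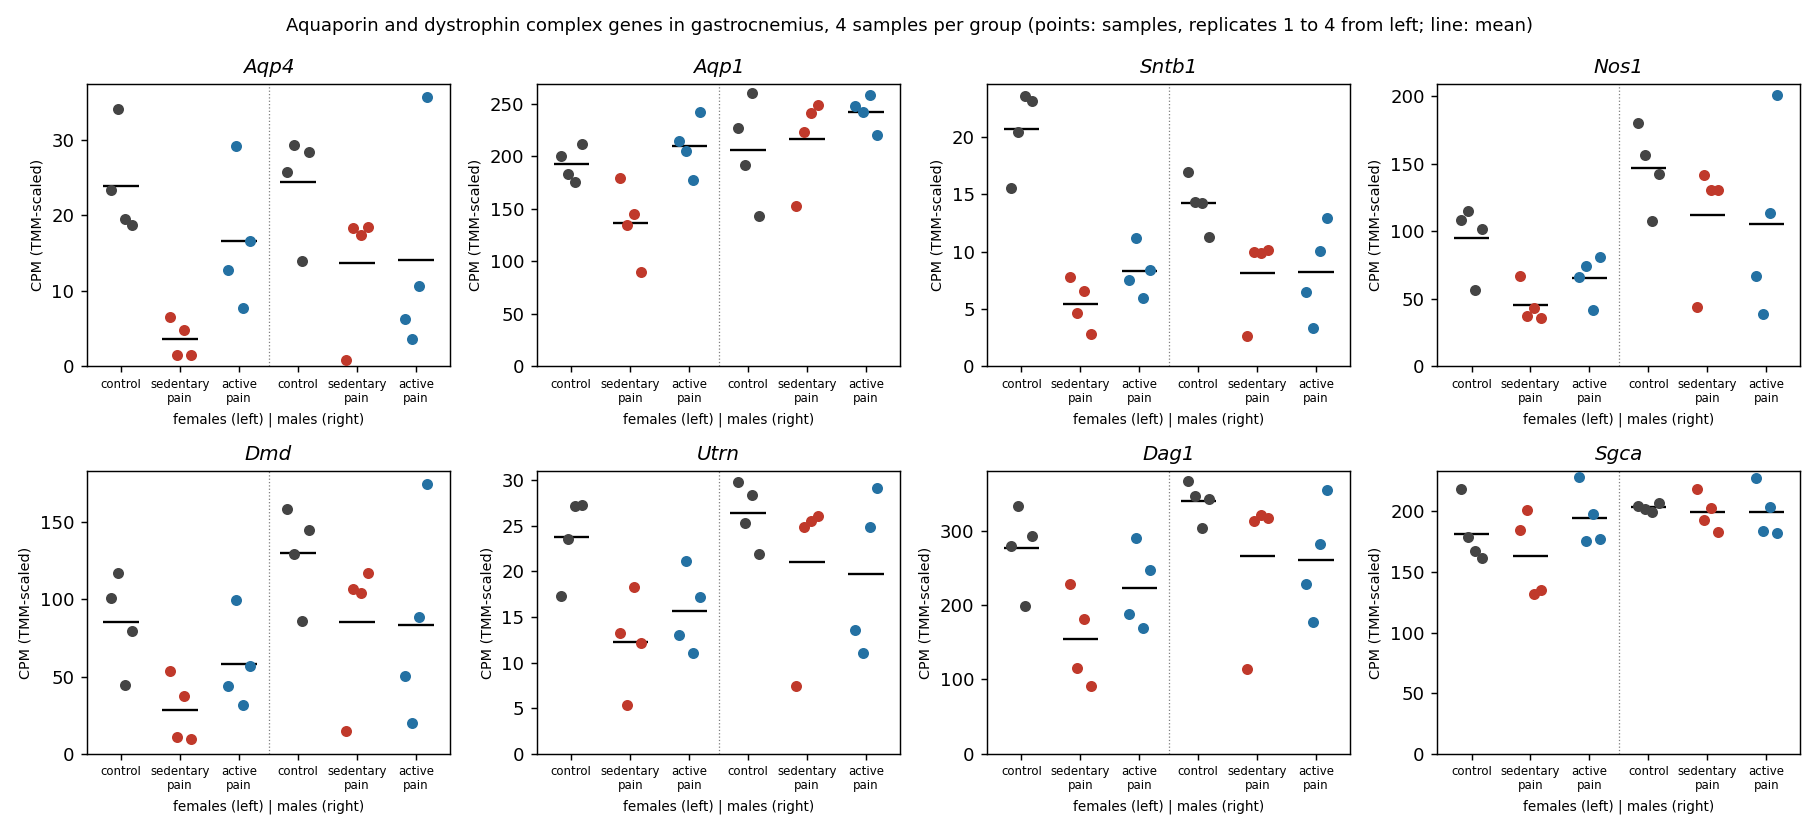
CPM of the 8 genes (vertical axes, linear and starting at 0) in each sample of the 6 groups (horizontal axes), with a line at the group mean. Aqp4 and Sntb1 in female sedentary pain lie below every female control, Sgca overlaps in all groups, and in males the low point of Aqp4, 0.907 CPM, is sedentary pain replicate 1.

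The water channel Aqp4 was the member with the lowest share of its control level in female sedentary pain. In replicates 1 to 4 it had 23.3, 34.1, 19.5 and 18.7 CPM in female controls. It had 6.51, 1.52, 4.84 and 1.48 CPM in female sedentary pain, and 12.8, 29.1, 7.70 and 16.6 CPM in female active pain. All 4 sedentary pain samples lay below all 4 controls, and the active pain samples lay above every sedentary pain sample, 1 of them within the control range and 3 below it. The mean in sedentary pain was 15.0% of the control mean, a log2 fold change of -2.69 ± 0.51 (SE); in active pain it was 69.3%, a log2 fold change of -0.53 ± 0.48, which was -0.95 without active replicate 2, -0.32 without active replicate 3 and -0.34 without control replicate 2. Active against sedentary pain gave 2.16 ± 0.51, and from 1.02 to 2.32 in 14 other settings. These comparisons share samples, so their values are not independent of each other.

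Males had the same control level of Aqp4 within the spread, with 25.8, 29.3, 14.02 and 28.4 CPM. Male sedentary pain samples had 0.907, 18.3, 17.4 and 18.4 CPM, so 3 of them lay inside the control range and replicate 1 far below it. Male active pain samples had 6.21, 3.59, 10.6 and 35.7 CPM, 3 below and 1 above every control. The log2 fold change against control was -0.82 ± 0.77 in sedentary and -0.81 ± 0.77 in active pain, with adjusted p = 0.656 and 0.636 in edgeR's quasi-likelihood test. Leaving out sedentary replicate 1 moved the first of these to -0.43. The second was -0.49 without active replicate 2 and -1.79 without active replicate 4, the highest. The sedentary pain difference in females minus that in males was -1.84 ± 0.97, and the active against sedentary difference was 2.12 ± 0.98 larger in females; no test is given for these since they use the female samples.

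Aqp1, the endothelial channel, stood at 71.1% of its control mean in female sedentary pain. Female controls had 201, 183, 175 and 212 CPM, and female sedentary pain samples had 179, 135, 145 and 90.0 CPM, so that 3 of 4 lay below every control. The log2 fold change was -0.46 ± 0.18 and did not pass the threshold of 0.05 after Benjamini-Hochberg adjustment over all genes (edgeR, adjusted p = 0.0658). Its size depended on the setting: it was -0.82 with adjusted p = 0.0269 when exon length and GC content were corrected for, and DESeq2 gave -0.45 with adjusted p = 0.0468. It was -0.59 with adjusted p = 0.0192 without sedentary replicate 1, -0.29 without sedentary replicate 4 and -0.03 with 1 surrogate variable in the model. Endothelial markers, 12 genes, summed to 342 to 384 CPM in female controls and 260 to 312 CPM in female sedentary pain, and 4 of the 12 fell. Smooth muscle and pericyte markers, 7 genes, summed to 517 to 643 CPM against 235 to 440 CPM, and 5 of the 7 fell. Among all genes 13.9% passed as lower in that comparison. The part of endothelial, smooth muscle and pericyte cells in the Aqp1 value was not tested. Female active pain samples had 215, 205, 177 and 242 CPM, 2 inside the control range and 2 above it. Males had 227, 192, 261 and 143 CPM in controls, 153, 223, 242 and 249 CPM in sedentary pain and 248, 242, 258 and 220 CPM in active pain, which overlapped.

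Sntb1, beta-1-syntrophin, is an adaptor that binds dystrophin and utrophin, and among the members with a test it gave the smallest p in female sedentary pain against control. Controls had 15.5, 20.4, 23.6 and 23.2 CPM, and sedentary pain samples had 7.83, 4.67, 6.62 and 2.79 CPM. All 4 pain samples lay below all 4 controls, at 26.5% of the control mean. The log2 fold change was -1.89 ± 0.29 (edgeR, adjusted p = 0.0026), and it passed the threshold in each of the 12 fits that left out 1 female sample. Without sedentary pain replicates 2 and 4, where long genes were low, it was -1.48 ± 0.25 with adjusted p = 0.0157. Without replicates 3 and 4, where macrophage markers were highest, it was -1.71 ± 0.30 with adjusted p = 0.0143.

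In female active pain Sntb1 had 7.503, 11.2, 5.98 and 8.44 CPM, again below every control, at 40.04% of the control mean. The log2 fold change was -1.32 ± 0.29. It ranked 8th by p among 14511 genes, but no gene passed the threshold in that comparison with edgeR (adjusted p = 0.565, unadjusted p = 0.00063). With DESeq2, which called 125 of these genes, the same change had adjusted p = 0.0059. Against sedentary pain the value was 0.57 ± 0.29, and those ranges overlapped.

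Male samples of Sntb1 were lower than controls too, without passing the test. Controls had 17.0, 14.3, 14.3 and 11.3 CPM and sedentary pain samples 2.64, 9.94, 9.86 and 10.1 CPM, which did not overlap. The log2 fold change was -0.80 ± 0.42 (edgeR, adjusted p = 0.608). Leaving out replicate 1, the lowest, gave -0.51. Active pain samples had 6.48, 3.39, 10.1 and 12.9 CPM, 3 of 4 below every control, and gave -0.79 ± 0.42 (adjusted p = 0.634). The sedentary pain difference in females minus that in males was -1.05 ± 0.53 (edgeR, adjusted p = 0.544). Among all genes tested, ranges lay wholly below control in 11.8% for female sedentary pain, 1.7% for female active pain and 2.93% for male sedentary pain, and in 2.82% for male active pain, where no member did.

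Dmd, the scaffold of the complex, had 101, 117, 44.9 and 79.7 CPM in female controls. Sedentary pain samples had 53.8, 10.98, 37.7 and 9.70 CPM, with 3 of 4 below every control and replicate 1 above control replicate 3. Dmd fell by 1.57 ± 0.54 on the log2 scale (edgeR, adjusted p = 0.0437). The 2 lowest samples, replicates 2 and 4, were also those in which long genes as a whole were low; without them the difference was -0.86 ± 0.46 with adjusted p = 0.265. Female active pain samples had 43.8, 99.3, 31.9 and 56.8 CPM, and the log2 fold change against control was -0.56 ± 0.53 (adjusted p = 0.838), or -0.95 without active replicate 2.

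In males Dmd had 159, 130, 85.8 and 145 CPM in controls, 14.6, 107, 104 and 117 CPM in sedentary pain, and 50.5, 20.0, 88.8 and 175 CPM in active pain. The 2 lowest samples, sedentary replicate 1 and active replicate 2, were again the male libraries lowest in long genes. The log2 fold changes against control were -0.59 ± 0.63 (edgeR, adjusted p = 0.665) and -0.64 ± 0.63 (adjusted p = 0.638). Without sedentary replicate 1 the first was -0.24, and the second was -0.32 without active replicate 2 and -1.24 without active replicate 4, the highest.

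Utrn, the homologue of dystrophin, had 17.2, 23.5, 27.1 and 27.3 CPM in female controls and 13.3, 5.35, 18.3 and 12.2 CPM in sedentary pain. Replicate 3 of the pain group overlapped the lowest control. Utrn fell by 0.92 ± 0.32 on the log2 scale (edgeR, adjusted p = 0.0453), and with length and GC correction the value was -0.63 with adjusted p = 0.0579. Female active pain samples had 13.05, 21.1, 11.1 and 17.2 CPM, giving -0.61 ± 0.32 against control (adjusted p = 0.787). In males the values were 29.8, 25.3, 28.3 and 21.9 CPM in controls, 7.41, 24.9, 25.6 and 26.02 CPM in sedentary pain and 13.6, 11.04, 24.9 and 29.2 CPM in active pain. Their log2 fold changes were -0.32 ± 0.37 and -0.43 ± 0.37 (edgeR, adjusted p = 0.676 and 0.636), and -0.05 without sedentary replicate 1 and -0.23 without active replicate 2.

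Dag1, the receptor for laminin, had 280, 333, 198 and 293 CPM in female controls and 228, 116, 181 and 91.4 CPM in sedentary pain, so that 3 of 4 lay below every control. Dag1 fell by 0.81 ± 0.27 on the log2 scale (edgeR, adjusted p = 0.0412), a call lost in 6 of the 12 fits that left out 1 female sample. Female active pain samples had 188, 290, 169 and 247 CPM, and the difference of -0.30 ± 0.27 did not pass the test (adjusted p = 0.838); it was -0.45 without active replicate 2. Male controls had 366, 347, 304 and 343 CPM. Male sedentary pain samples had 114, 313, 321 and 317 CPM, with replicate 1 apart, and active pain samples had 228, 177, 282 and 355 CPM. The male log2 fold changes were -0.34 ± 0.28 and -0.39 ± 0.28 (edgeR, adjusted p = 0.647 and 0.634), and -0.10 without sedentary replicate 1 and -0.24 without active replicate 2.

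Nos1, which makes nitric oxide at the membrane, had 108, 115, 56.5 and 102 CPM in female controls and 66.7, 37.3, 43.4 and 35.8 CPM in sedentary pain. Only replicate 1 of the pain group was above the lowest control. Nos1 fell by 1.02 ± 0.27 on the log2 scale (edgeR, adjusted p = 0.0156), a call that ended when sedentary replicate 4 was left out (adjusted p = 0.0509). Female active pain samples had 65.9, 73.9, 41.5 and 81.1 CPM, at -0.53 ± 0.26 against control (adjusted p = 0.753). In males Nos1 had 180, 156, 108 and 143 CPM in controls, 44.0, 142, 131 and 131 CPM in sedentary pain and 67.1, 38.6, 114 and 201 CPM in active pain. The male differences were -0.38 ± 0.45 and -0.49 ± 0.45 (edgeR, adjusted p = 0.679 and 0.636). The first was -0.12 without sedentary replicate 1, and the second -0.21 without active replicate 2 and -0.96 without active replicate 4.

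Sgca, a sarcoglycan that stabilises dystroglycan, overlapped between all groups. Female controls had 219, 179, 168 and 161 CPM, sedentary pain samples 185, 201, 132 and 135 CPM and active pain samples 229, 176, 198 and 177 CPM. The female sedentary pain difference was -0.12 ± 0.17 (edgeR, adjusted p = 0.579), and with length and GC correction it was -0.56 (adjusted p = 0.0523). In males every sample lay between 182 and 228 CPM.

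Counted together, 5 of the 7 members with a test passed it in female sedentary pain against control, all lower: Sntb1, Dmd, Utrn, Dag1 and Nos1. In that comparison 33.5% of 14511 genes passed in either direction, 13.9% as lower and 19.6% as higher. Among these 7, without Aqp4, the log2 fold changes ran from -0.12 to -1.89, with Utrn in the middle at -0.92. The median was -0.02 over all genes, -0.16 over genes with 5 to 10 kb of exon and -0.39 over those with 10 kb or more. With 1 surrogate variable in the model, which left 114 of all genes called, none of the 7 passed: Sntb1 was at -1.34, Utrn at -0.96, Nos1 at -0.31, Dmd at -0.07, Dag1 at -0.04, Aqp1 at -0.03 and Sgca at 0.14, with Aqp4 at -1.36. Without sedentary replicates 2 and 4, as without replicates 3 and 4, Sntb1 alone of the 7 passed. Over all genes the calls went from 4867 to 1421 of 15078 and 1440 of 15015 in these fits. In the 12 fits that left out 1 female sample, Dmd lost its call in 7, Utrn in 8 and Dag1 in 6. The samples whose removal left 3 or fewer of the 7 called were sedentary replicates 2 and 4, control replicates 1, 2 and 4, and active replicates 1 and 4, which enter through the shared estimate of spread.

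No member passed in female active pain against control, where 0% of genes did; 1 of the 7, Sntb1, had an unadjusted p under 0.05, as had 7.03% of all genes. In males no member and no gene passed in any of the 3 comparisons (0% each), and no tested member had an unadjusted p under 0.05, against 8.84% of genes for sedentary pain, 7.25% for active pain and 0.84% for active against sedentary pain. The 8 male active against sedentary values ran from -0.11 to 0.15. No sex difference of a change passed for a tested member, again with 0% of 15103 genes called. Male against female controls gave no call among the 7 members with a test, with 2.83% of genes called. A p above the threshold does not show equal levels.

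**Figure D2:**
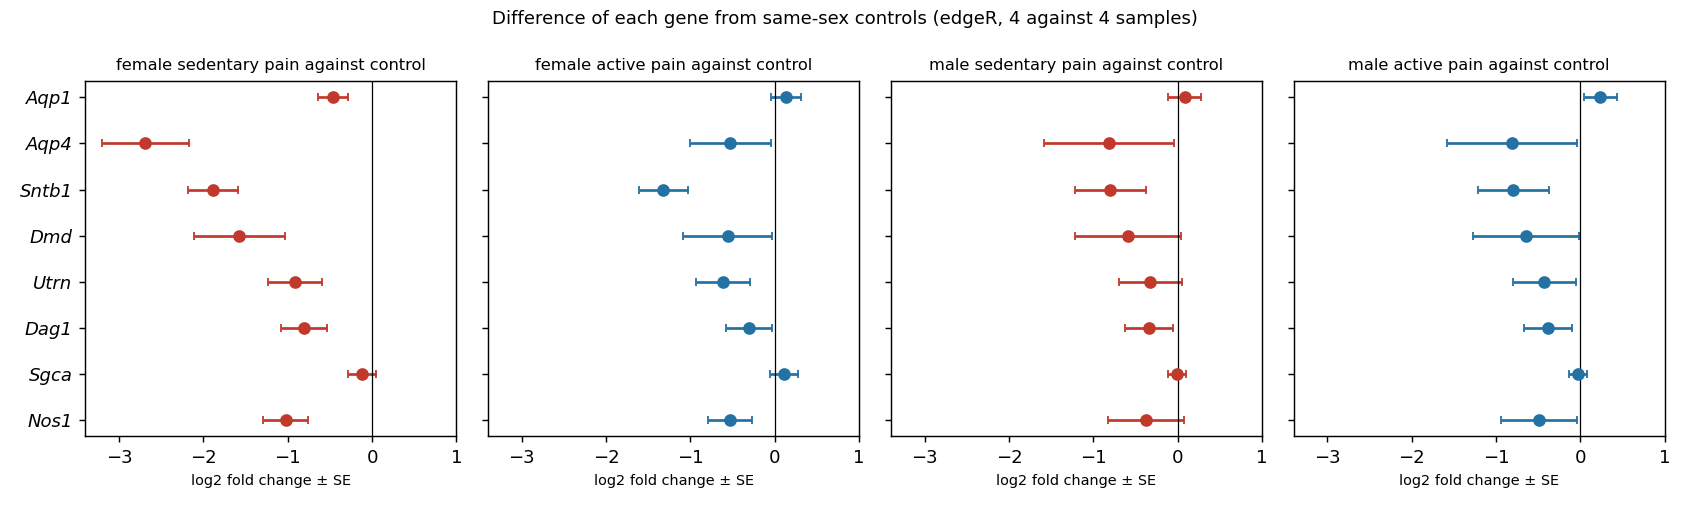
Log2 fold change of each gene against same-sex controls (horizontal axis) with its standard error as the bar, in the 4 comparisons with controls. In female sedentary pain the 8 points run from -0.12 (Sgca) to -2.69 (Aqp4), and in both male panels every bar of the 8 genes lies above -1.6.

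Female active pain was set beside female sedentary pain as values only. Dmd was higher by 1.01 ± 0.54, Aqp1 by 0.59 ± 0.18, Dag1 by 0.51 ± 0.27, Nos1 by 0.49 ± 0.26, Utrn by 0.30 ± 0.32 and Sgca by 0.23 ± 0.17 on the log2 scale. Of the 7 genes besides Aqp4, 0 were below 0, beside 7119 of all 14511 genes, but 5 of the 7 were below 0 under some alternative. With 1 surrogate variable Dmd was at -0.23, Dag1 at -0.12 and Nos1 at -0.09. Utrn was at -0.07 without the libraries lowest in long genes and at -0.18 in replicates 3 and 4 alone, and Sgca was at -0.00063 without the 2 libraries highest in macrophage markers. In this comparison 11.9% of genes passed the test and 2.51% passed as higher in active pain. Those 1730 calls did not hold when some single libraries were left out. Without active replicate 1, 2 or 4 or sedentary replicate 4, 0 genes passed, and 3 passed without sedentary replicate 3. In those 4 fits with 0 calls, 4166, 3659, 3839 and 3131 genes still had an unadjusted p under 0.05, against 4679 with all samples. With only the 2 groups in the fit or with 1 surrogate variable, 0 genes passed, and 3818 and 876 had an unadjusted p under 0.05. The sedentary group contained both libraries low in long genes; without them the Aqp4 value was 1.498 ± 0.46 and the Sntb1 value 0.16 ± 0.24.

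Longer genes were lower as a class in female sedentary pain, and the members stood at different distances from their class. The median log2 fold change against control went from 0.24 for 1000 genes under 1 kb through 0.06 for 5994 genes of 2 to 5 kb and -0.16 for 4449 genes of 5 to 10 kb to -0.39 for 1299 genes of 10 kb or more. In the longest class 28.0% of genes passed the test as lower, against 6% in the shortest. Dmd, Utrn and Nos1 belong to the longest class, Aqp4, Dag1 and Sntb1 to that of 5 to 10 kb. By GC content the medians went from -0.23 under 45% to 0.17 at 55% or more, and Aqp4 and Dmd, at 41.4% and 41.5%, lie in the lowest class. After correction for both, Aqp4 was at -2.64 ± 0.43, Sntb1 at -1.90 ± 0.26 and Dmd at -1.15 ± 0.39, while the median of all genes moved from -0.02 to -0.14. The correction also turned the direction of the calls over all genes, from 2847 higher and 2020 lower to 2271 higher and 2907 lower.

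**Figure D3:**
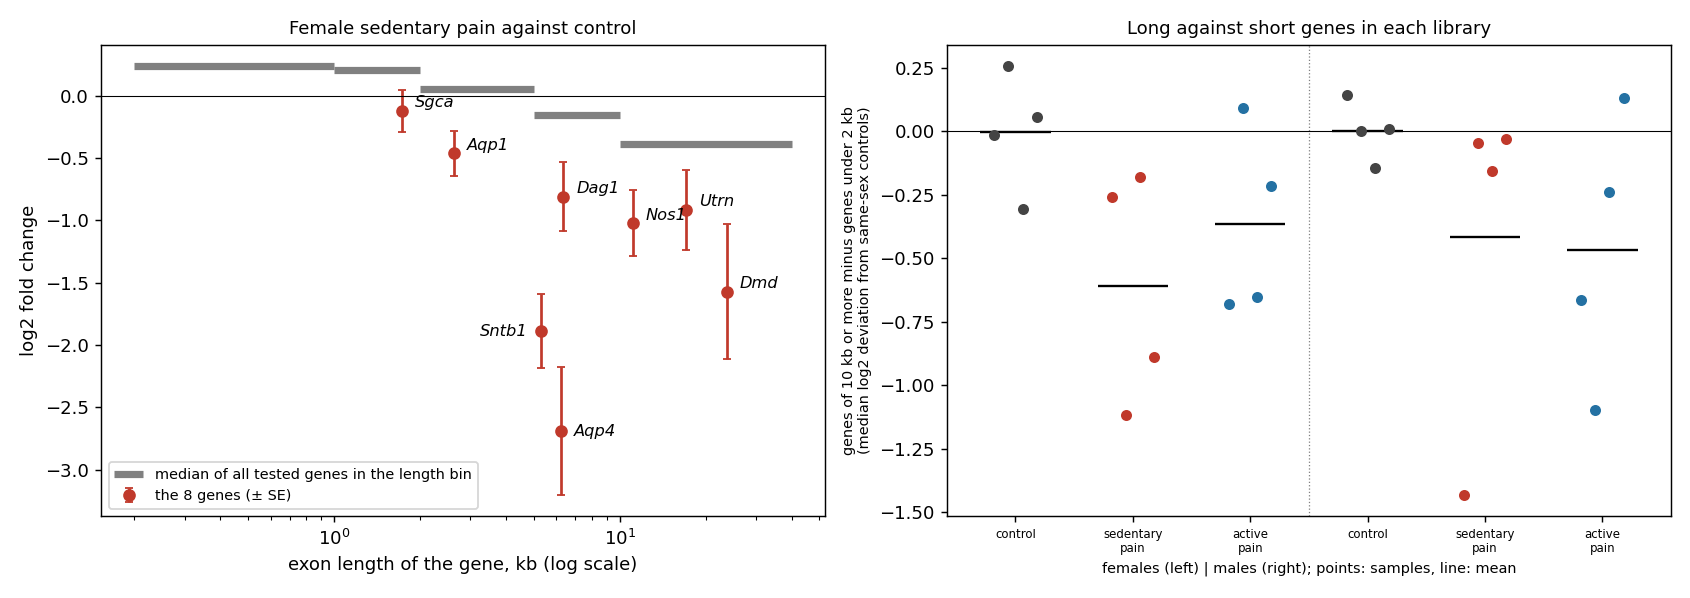
Left, log2 fold change in female sedentary pain against control (± SE) of the 8 genes against exon length on a log axis, with grey bars at the median of all tested genes in each length class. Right, the median log2 deviation of genes of 10 kb or more minus that of genes under 2 kb in every sample; Aqp4 and Sntb1 lie farthest below their class, and the lowest libraries are at -1.43, -1.12, -1.10 and -0.89.

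Within a library, the ratio of 2 members removes the scaling. The log2 ratio of Aqp4 to Dmd was -2.11 to -1.20 in female controls, -3.05 to -2.71 in female sedentary pain and -2.05 to -1.77 in female active pain. The 4 sedentary pain samples lay below the other 8 female samples. The log2 ratio of Aqp4 to Aqp1 was -3.50 to -2.42 in female controls, -6.47 to -4.78 in sedentary pain and -4.53 to -2.81 in active pain. Aqp4 was named for its difference between these female pain groups, so its ratios there describe the chosen values again and are no further evidence of it. In males the ratio of Aqp4 to Dmd was -2.62 to -2.14 in controls, -4.01 to -2.54 in sedentary pain and -3.07 to -2.29 in active pain, and these overlapped. The log2 ratio of Sntb1 to Dmd overlapped between the female groups, at -2.70 to -0.93 in controls, -2.78 to -1.23 in sedentary pain and -3.15 to -2.41 in active pain. Utrn to Dmd was -2.55 to -0.73 in female controls and -2.02 to 0.33 in female sedentary pain. Dmd to Sgca ran from -1.90 to -0.61 in female controls and from -4.20 to -1.78 in sedentary pain. A ratio shows unequal change, not which of its genes changed.

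**Figure D4:**
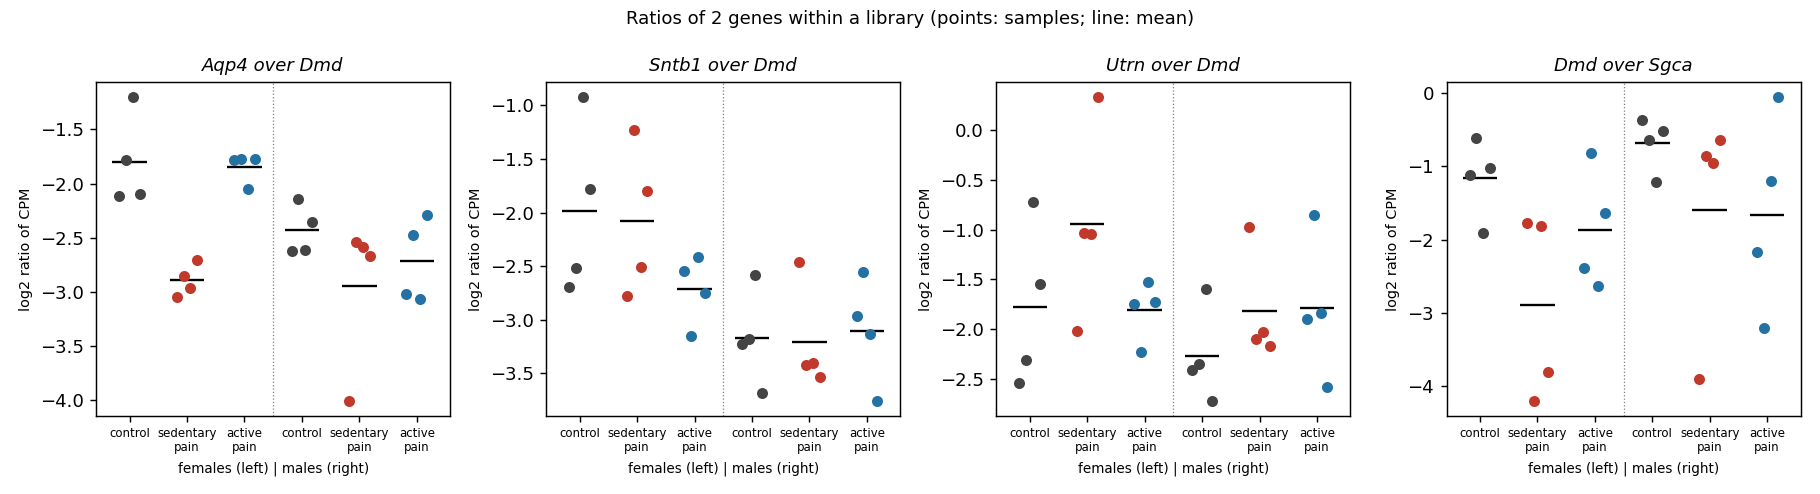
Log2 ratio of CPM of 2 genes within each sample (vertical axes) by group (horizontal axes), with a line at the mean. For Aqp4 over Dmd the female sedentary pain points, -3.05 to -2.71, lie apart from the female controls and active pain; for Sntb1 over Dmd, Utrn over Dmd and Dmd over Sgca, female sedentary pain overlaps female controls.

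Across the 24 samples several members kept step. Pearson's r of log2 CPM was 0.98 between Dmd and Dag1, 0.93 between Dmd and Nos1, 0.93 between Dmd and Aqp4 and 0.88 between Aqp4 and Sntb1. Sgca stood apart, with r from -0.14 with Utrn to 0.46 with Aqp1. The points share groups, depth and the libraries low in long genes, so these values describe the samples and carry no p. Among 11149 genes whose mean log2 CPM was 1 or more, those most like Aqp4 were Rbms2 (r = 0.98), Npr2, Esr1, Pdk1 and Mut (each 0.97). Nearest to Dmd were Neb, Ubr3 and Ercc6l2 (each 0.99); Neb encodes nebulin, another giant muscle protein, with 26.6 kb of exon. The nearest were Cep68, Rab5b and Gm8424 for Dag1 (each 0.99), Prrc2b, Slc35e1 and Ralgapb for Nos1 (each 0.97), and Sptbn1 (0.98), Kctd12b and Isoc1 (each 0.95) for Utrn. For Sntb1 they were Ralgapa2 (0.94), Dbt and Ahcyl2 (each 0.93). Sgca went with Tnnt3, fast troponin T (0.93), Neurl1a (0.93) and Cacng6 (0.92), and Aqp1 with Wscd1, Tmem204 (each 0.86) and Rgs5, a pericyte gene (0.84).

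The other genes of the complex that passed in female sedentary pain against control were lower. Of 24 listed, 21 were tested in females, and 8 fell in that comparison and 0 rose, beside 13.9% of all genes lower and 19.6% higher; their median log2 fold change was -0.48. Synm, the intermediate filament protein synemin that binds dystrophin, fell by 0.72 ± 0.23 (edgeR, adjusted p = 0.0362). Krt19, the costameric keratin 19, fell by 4.57 ± 1.23 (adjusted p = 0.0184), but its controls ran from 0.469 to 30.1 CPM and overlapped the pain samples at 0.236 to 1.46 CPM. Adipocyte markers, 8 genes, also had scattered female controls, at 190 to 4175 CPM against 86.5 to 514 CPM in sedentary pain, and their part in the Krt19 value was not tested. In female active against sedentary pain 1 of the 21 passed, as higher, a call that ended without active replicate 1, 2 or 4 or sedentary replicate 4, as every call of that comparison did.

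Other aquaporins were scarce in this muscle, with 2 of 10 passing the low-count filter in females. Aqp7, an aquaglyceroporin of adipocytes and capillaries, had 10.98 ± 5.29 CPM in female controls and 4.29 ± 1.47 CPM in sedentary pain (SD, n = 4) and fell by 1.34 ± 0.35 (edgeR, adjusted p = 0.0162). The adipocyte marker Cfd, adipsin, fell by 2.74 ± 0.94 (edgeR, adjusted p = 0.0436). Of the 8 adipocyte markers 6 fell, beside 13.9% of all genes, and their part in the Aqp7 value was not tested.

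Enzymes that glycosylate dystroglycan went both ways in female sedentary pain: of 17 tested, 2 rose and 6 fell, with a median of -0.32, beside 19.6% of all genes higher and 13.9% lower. Gmppb and Dpm2, which supply activated mannose, rose by 1.04 ± 0.22 and 1.09 ± 0.28 (edgeR, adjusted p = 0.0063 and 0.0149). B3galnt2 fell by 0.83 ± 0.23 (adjusted p = 0.0198) and Pomgnt2 fell by 0.69 ± 0.20 (0.0218). In active against sedentary pain Gmppb and Dpm2 were lower, at -0.84 ± 0.22 and -0.97 ± 0.28, and Pomgnt2 was higher, at 0.72 ± 0.20, all past the threshold (edgeR, adjusted p = 0.0344, 0.0444 and 0.0386). Without active replicate 1, 2 or 4 or sedentary replicate 4, 0 genes passed there.

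Around nitric oxide, 3 of 12 tested genes rose in female sedentary pain and 1 fell, beside 19.6% of all genes higher and 13.9% lower. Dynll1, a dynein light chain that binds neuronal nitric oxide synthase, had 23.4 ± 3.21 CPM in controls and 45.2 ± 12.5 CPM in pain, a change of 0.99 ± 0.19 (edgeR, adjusted p = 0.0049). Nos2, the inducible synthase of activated macrophages, had 2.09 to 2.96 CPM in controls and 0.957 to 36.5 CPM in pain, at 2.80 ± 0.90 (adjusted p = 0.0347). Gucy1a1, a subunit of the nitric oxide receptor guanylate cyclase, fell by 1.08 ± 0.31 (adjusted p = 0.0242). All 12 macrophage and 7 of 7 tested neutrophil markers rose in the same comparison, Lyz2, the macrophage lysozyme, by 4.48 ± 0.83 (adjusted p = 0.0040); their part in the Nos2 value was not tested. In active against sedentary pain Dynll1 and Nos2 were lower, at -0.87 ± 0.19 and -3.06 ± 0.91 (adjusted p = 0.0328 and 0.0496), and both calls ended without active replicate 1, 2 or 4 or sedentary replicate 4.

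The integrin side of the fibre attachment went both ways. Of 15 integrin and costamere genes tested, 7 rose and 3 fell in female sedentary pain, with a median of 0.15, beside 19.6% of all genes higher and 13.9% lower. Tln1, talin 1, had 94.3 ± 9.18 CPM in controls and 210 ± 67.3 CPM in pain (1.20 ± 0.20, edgeR, adjusted p = 0.0031). Des, desmin, had 3427 ± 442 and 6809 ± 2053 CPM (1.03 ± 0.23, adjusted p = 0.0075), and Itgb1, integrin beta 1, 160 ± 8.996 and 221 ± 21.6 CPM (0.50 ± 0.12, adjusted p = 0.0106). Dst, dystonin, fell by 1.12 ± 0.35 (adjusted p = 0.0298), Tln2 fell by 0.64 ± 0.20 (0.0318) and Fermt2, kindlin 2, fell by 0.70 ± 0.25 (0.0493). Talin 1 and integrin beta 1 are also expressed in leukocytes, whose markers rose in the same samples, and their part was not tested. In active against sedentary pain Tln1 and Itgb1 were lower, at -1.05 ± 0.20 and -0.41 ± 0.12 (adjusted p = 0.0328 and 0.0457). These calls too ended without any 1 of the same 4 libraries, and without the 2 libraries highest in macrophage markers.

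In males none of these 5 lists had a called gene in any comparison of pain groups and controls, where 0% of all 14404 genes passed. Between male and female controls, Dtnb, beta-dystrobrevin, was higher in males at 3.70 ± 0.43 against 0.959 ± 0.38 CPM (SD, n = 4; 1.91 ± 0.34, edgeR, adjusted p = 0.0022). Krt19 and Krt8, which were high in 2 of the 4 female controls, were lower in males, at -5.06 ± 1.02 and -5.03 ± 1.28 (adjusted p = 0.0069 and 0.0336), as was Pomk, at -0.45 ± 0.10 (0.0102).

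**Figure D5:**
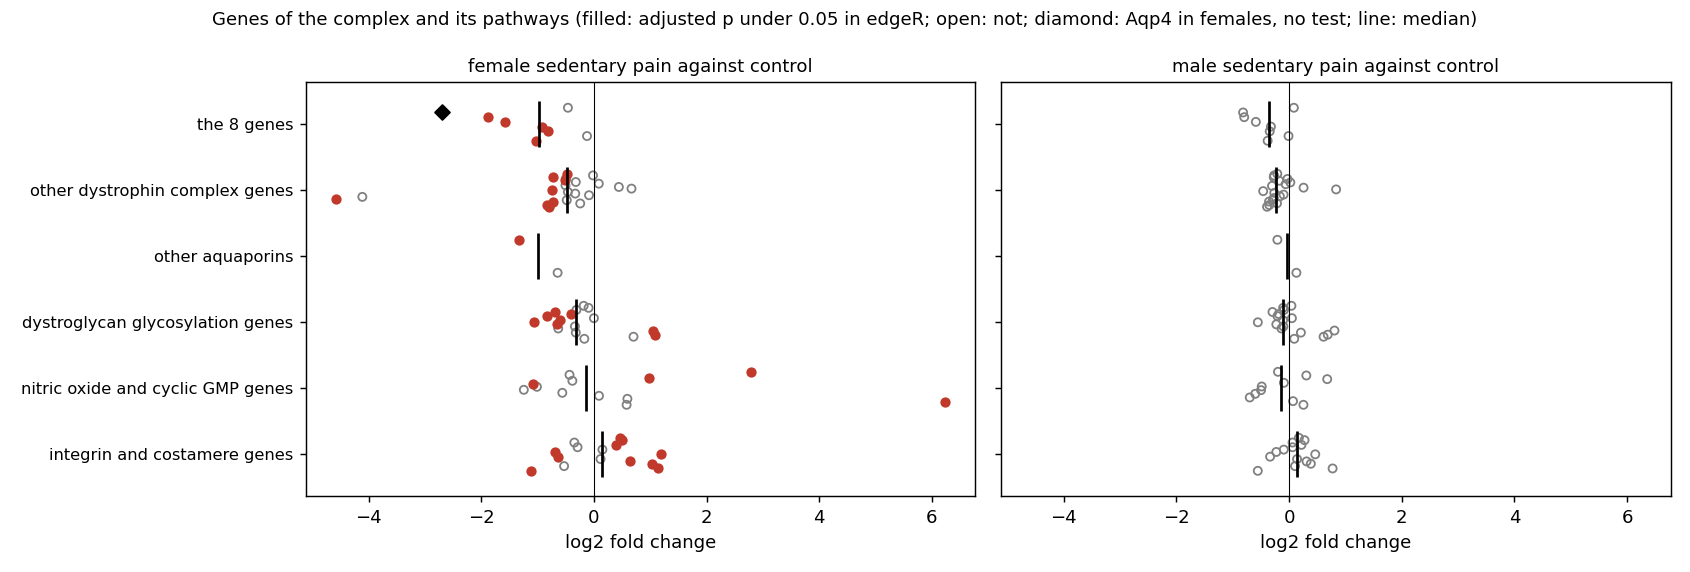
Log2 fold change in sedentary pain against control for the 8 genes and 5 lists (rows), females left and males right; each point is a gene, filled where edgeR's adjusted p was under 0.05, and the black diamond is Aqp4 in females, which carries no test. In females the complex genes lie mostly below 0 (median -0.48) and the integrin and costamere genes on both sides (median 0.15). In males no point is filled, and 0% of all 14404 genes passed there.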

How the data were processed

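Total RNA of 24 left gastrocnemius samples was sequenced as stranded TruSeq libraries with paired ends, per the labels' protocols. The deposited values are whole-number read counts per Ensembl gene, raw and unfiltered as far as the values show; the submitters' processing notes name HISAT2 2.1.0, Salmon 0.9.1, featureCounts, DESeq2 1.24.0, mm10 and GRCm38.p6, with no role or order, and whether counting used strand is not given in the sources used here. No 2 samples were identical. Positions and exon lengths come from GENCODE M21 (GRCm38), which held 54495 of 54532 genes.

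CPM used trimmed mean of M-values (TMM) factors over all 24 samples. Tests were edgeR 4.0.16 quasi-likelihood F tests (robust, two-sided; R 4.3.3) after filterByExpr (minimum count 10), per sex on 12 samples; sex differences and the comparison of controls used all 24. P-values were adjusted over all genes tested, at 0.05; the SE is that matching the test. Alternatives used DESeq2 1.42.0, limma 3.58.1, sva 3.50.0 and splines with 5 degrees of freedom for length and GC. The tests were run on simulated counts with the same dispersion for every gene and no libraries low in long genes. That setting is unlike these libraries, so it does not vouch for the calls here. Scripts ran in Python 3.11.15 with NumPy 2.4.6, pandas 2.3.3 and matplotlib 3.10.9.

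The members and lists were chosen with earlier results of these data known. Text names the members; per list and comparison within a sex up to 3 called genes each way with the smallest p; the 5 genes most like Aqp4 and 3 most like each other member (log2 CPM with prior count 2); and the most abundant gene of marker lists. Some of the listed genes are not reported here by name.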

Additional observations from a re-analysis of the deposited data

Results flagged for a closer look

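Among 48 sets of 4 samples (8 genes in 6 groups), 6 had a sample whose gap to the nearest other, as a share of the group's range, was above Dixon's critical value; chance flags about 1 in 20 such sets. All 6 were the lowest value in male sedentary pain and all were replicate 1, so they are 1 library and not separate events. It had 0.907 CPM of Aqp4, 2.64 CPM of Sntb1, 14.6 CPM of Dmd, 7.41 CPM of Utrn, 114 CPM of Dag1 and 44.0 CPM of Nos1. The gap took 0.938, 0.966, 0.875, 0.938, 0.963 and 0.885 of the range. Sgca in the same library was at 218 CPM, the highest of its group. That library was also the lowest of all 24 in long against short genes (-1.43) and had the highest male sums of macrophage markers (920 CPM) and neutrophil markers (332 CPM); their part in its values was not tested.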

How the results depend on the processing

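In female sedentary pain against control, 5 of the 7 members with a test were called, 6 with DESeq2 and with the replicate block plus length and GC correction, 5 with RLE scaling, without mitochondrial genes and with length and GC correction, and 3 without the low-count filter and with all 24 samples in 1 fit. The count was 2 with the replicate block (Sntb1 and Nos1), 2 with only the 2 groups compared, 0 with 1 surrogate variable, 1 without the 4 libraries lowest in long genes, 1 without the 2 highest in macrophage markers, 0 in replicates 1 and 2 alone and 1 in replicates 3 and 4 alone; leaving out 1 sample gave 1 to 5. The settings that left out those 4 or 2 libraries or kept 2 replicate numbers were chosen after seeing the data. Over all genes that comparison had 4867 calls, 5773 with DESeq2, 3739 with the replicate block, 2847 with only the 2 groups and 114 with the surrogate variable. It had 2486 without sedentary replicate 4, and 3107, 2864 and 3161 without control replicates 1, 2 and 4. Without the 4 libraries lowest in long genes it had 1421, and without the 2 highest in macrophage markers 1440. Replicates 1 and 2 alone gave 238, and replicates 3 and 4 alone 3456. DESeq2 called 1 member, Sntb1, and 125 of all 14511 genes in female active pain against control, where edgeR called 0. Sex differences gave 0, except 1 (Sntb1) for sedentary pain in replicates 3 and 4 alone. Male against female controls gave 0, and 1 (Sntb1) with the surrogate variable. The share of all genes called in these settings is not given here, so neither call is read as particular to Sntb1. Aqp4 in comparisons with female samples, and every member in female active against sedentary pain, were left out of these counts.

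Signs turned mostly in males. With 1 surrogate variable, male sedentary pain was at 0.17 for Aqp4, 0.31 for Dmd, 0.17 for Utrn, 0.0653 for Dag1 and 0.27 for Nos1, and male active pain at 0.32, 0.21, 0.11, 0.0684 and 0.0567. In replicates 3 and 4 alone, male sedentary pain was at 0.0224 for Utrn and 0.0512 for Nos1, and male active pain at 0.0918 for Aqp4, 0.17 for Dmd, 0.0778 for Utrn and 0.30 for Nos1. Sgca in female sedentary pain was at 0.10 without the 2 libraries of highest macrophage markers and 0.14 with 1 surrogate variable, but -0.59, past the threshold (adjusted p = 0.0094), with the replicate block plus length and GC correction. The cause was not tested. Of 500 other values of single members under these settings, 428 kept their direction and side of the threshold or stayed within 1 SD.

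Replicate numbers recur in all groups without a stated meaning. Same-numbered samples' deviations correlated above 0.1 in 6 of 12 pairs in females (mean 0.11) and 4 of 12 in males (mean 0.01). Samples of unlike number were not examined beside them, so a batch shared by number was not tested. The numbers were not taken as pairs, and the replicate block is given as an alternative. With 4 samples a group and the fewest counts for Aqp4 at 23 in a library, precision is limited by the spread between samples more than by counting.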
